A study of Mus musculus with 18 samples.

Results

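Antisense transcripts are RNAs copied from the strand opposite to a gene, and where they share exonic bases with the mRNA of that gene the 2 RNAs can in principle pair over the shared stretch. They are known in all mammalian tissues, often start near the promoter of a coding gene and run away from it, and the testis is known for transcribing a large share of its genome, long noncoding RNAs included. In germ cells, mRNAs are stored in ribonucleoprotein particles (RNPs), which hold RNA that is not being translated, and are later loaded onto polysomes, where several ribosomes read an mRNA. The RNAs described here are the 244 assembled spliced transcripts that overlapped a protein-coding exon on the opposite strand by at least 1 base and overlapped no annotated exon on their own strand. They were taken from 37530 spliced transcripts that were listed in at least 3 of 18 libraries, out of 203392 that were listed in at least 1. A transcript is here a chain of introns on a strand, with the outermost ends found in any library.

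The transcripts were thus selected on the lists themselves: which libraries listed a transcript, that is, gave it an FPKM, decided its inclusion, so the number of libraries is a description and not a result. FPKM is fragments per kilobase of transcript per 1e+06 mapped fragments. Of the 244, 77 were listed in exactly 3 libraries, with a median FPKM of 0.60 (0.189 to 10.8) averaged over all 18 libraries. Another 188 transcripts met every other condition but were listed in exactly 2 libraries, with a median of 0.385 (0.0674 to 80.2), and 755 were listed in exactly 1. With the innermost in place of the outermost ends, 167 transcripts met the rule, and all 167 were among the 244. The transcripts are named by the coding gene they overlap, followed by AS and a rank.

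Libraries had been made from 3 cell types of adult, wild-type C57BL/6 mice: pachytene spermatocytes, which are in meiotic prophase, then round spermatids and, last, elongating spermatids. Each cell type had 3 RNP and 3 polysome libraries, cut from sucrose gradients. Cells were purified by sedimentation from testes pooled from several mice, in medium with cycloheximide, and the pool labelled elongating spermatid also held elongated spermatids according to the methods. Purity, which the paper estimated from cell morphology, was lowest in that pool. Neither the labels nor the methods say which libraries shared a purification, so p-values measure only the spread between these libraries, which may in part be technical. Fewer cells of a type and less RNA per cell cannot be told apart in such bulk samples.

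Introns nearly always read GT at the start and AG at the end on the transcribed strand. The methods do not say whether the lists took their strand from these bases. The bases at the intron ends are thus a description and no independent support for the strand. They are printed for the transcripts that the results turn on. Each start is given as 10 exonic and 10 intronic bases and each end as 20 intronic and 4 exonic bases, 5′ to 3′ on the strand of the antisense transcript, read from the mm9 genome, with the first and last 2 bases of the intron in capitals.
Ppa1-AS1, intron start, chr10:61142877-61142896, minus strand: ctcaagcgggGTaagacgtg
Ppa1-AS1, intron end, chr10:61137803-61137826, minus strand: ctcctcctttcctctctcAGgtat
Pcdh8-AS1, intron start, chr14:80169999-80170018, plus strand: cccagccaagGTgaggcggc
Pcdh8-AS1, intron end, chr14:80172184-80172207, plus strand: tttgctttctgttctaatAGggcc
Gal3st3-AS1, intron start, chr19:5306910-5306929, minus strand: agtttcgcggGTaacagaac
Gal3st3-AS1, intron end, chr19:5306130-5306153, minus strand: ccactggtttctctctccAGgata
Tmed10-AS1, intron start, chr12:86715387-86715406, plus strand: gcaccttgagGTgggtgcgc
Tmed10-AS1, intron end, chr12:86717414-86717437, plus strand: tatcatgcctgtaatcgcAGggtt
Cnot2-AS1, intron start, chr10:115947204-115947223, plus strand: acgacaaaagGTaagaggac
Cnot2-AS1, intron end, chr10:115959455-115959478, plus strand: aactgtaattgtttctgtAGacat
Efemp1-AS1, intron start, chr11:28817296-28817315, minus strand: gttgttgaagGTatgtctaa
Efemp1-AS1, intron end, chr11:28815917-28815940, minus strand: atgcatcttatctcttctAGtaac
Sorcs1-AS1, intron start, chr19:50327224-50327243, plus strand: tgaagagaggGTaagtgtta
Sorcs1-AS1, intron end, chr19:50327891-50327914, plus strand: cctctgatatattctctaAGaaaa
These 7 transcripts have 1 intron each, and all 7 introns read GT and AG.

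Over all 244 transcripts, 320 of 331 distinct introns read GT-AG (96.7%), against 98.8% of the 123439 introns of the other spliced transcripts. A further 6 read GC-AG, which is a known minor form, 4 read CT-AC and 1 read GT-TG. The strong start sites GTAAG or GTGAG opened 42.3% of the introns of the antisense transcripts, against 53.5% of the others. In 232 of the 244 transcripts every intron read GT-AG.

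The 4 CT-AC introns matched, base for base, introns annotated on the opposite strand, and their transcripts, Zfyve9-AS1, Zfyve9-AS2 and Srcap-AS1, were chosen for description after their values were seen. Of the introns of the antisense transcripts, 1.21% were such mirror images, against 0.0356% of the introns of the other spliced transcripts. Zfyve9 encodes an anchor protein of transforming growth factor signalling. The first intron of Zfyve9-AS1 is printed to show this.
Zfyve9-AS1, intron start, chr4:108392408-108392427, plus strand: actgtttcatCTgaaggaaa
Zfyve9-AS1, intron end, chr4:108396392-108396415, plus strand: tttccaatgtaaatcctcACcttc
On the Zfyve9 strand the same intron reads GT-AG. All 3 introns of Zfyve9-AS1 were of this kind, and 2548 of its 2668 exonic bases lay in exons of Zfyve9. Zfyve9-AS1 was listed in 10 libraries and was highest, at 23.4 FPKM, in round polysome replicate 2, the library in which Zfyve9 itself was highest, at 93.5. Which strand these RNAs were copied from was not tested. Srcap-AS1 lies opposite the gene of the chromatin remodelling enzyme Srcap and was listed in 3 libraries. Without the 3 mirrored transcripts, 241 remained.

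The antisense transcripts were short chains. Of the 244, 163 had 2 exons (66.8%), against 20.7% of the other spliced transcripts, 51 had 3, 23 had 4 and 7 had 5 or more. Zfyve28-AS2 had the most, 16. Their median spliced length was 1043 bases (165 in Serpinb9b-AS1 to 9549 in Tmc1-AS1). They fell into 201 loci of transcripts that overlapped on 1 strand, of which 34 held more than 1, and they lay opposite 197 coding genes. No more than 4 lay opposite any gene.

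Most of them shared little sequence with the coding gene. The median overlap was 88 bases (1 to 2548), or 9.92% of the exonic bases of the antisense transcript. In 215 transcripts only the first or last exon touched a coding gene. For the 163 transcripts with 2 exons this was fixed in advance, since they have no other exon. Among all antisense transcripts, the first exon held shared bases in 165 and the last exon in 100. An overlap of 30 to 50 bases was seen in 72 transcripts (29.5%), which is the tallest peak in the plot of overlap lengths. A terminal exon of at most 50 bases was present in 34 transcripts (13.9%), against 6.07% of the other spliced transcripts, and in 32 of the 34 it held shared bases. Gal3st3-AS1, Rai2-AS1, Slc9a4-AS1, Cnot2-AS1 and Epsti1-AS1 were of this kind, with first exons of 40, 42, 43, 46 and 46 bases. Sequencing reads were of similar length according to the methods, and their part in these short exons was not tested. Requiring at least 50 shared bases left 154 transcripts.

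**Figure D1:**
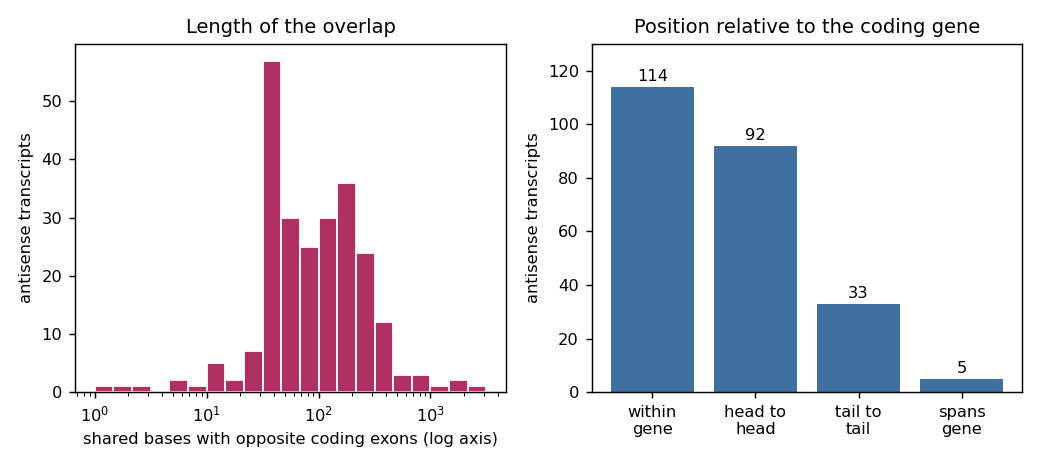
Left, histogram of the number of bases that each of the 244 antisense transcripts shared with coding exons on the opposite strand (log axis), with its tallest bar near 40 bases. Right, number of antisense transcripts in each position relative to the coding gene, of which 114 lay within the gene and 92 were head to head with it.

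Relative to the coding gene, 114 transcripts lay within its span, 92 were head to head, so that the 5′ ends overlapped, 33 were tail to tail and 5 spanned the whole gene. Coding sequence was touched in 153, in 121 of them without UTR, whereas 65 overlapped only 5′ UTR and 21 only 3′ UTR. UTR was counted only outside the outermost coding bases of the gene. The 5′ end was within 1000 bases of an annotated start on the opposite strand in 115 transcripts, and in 98 of these it was the start of the overlapped gene. Sorcs1-AS1 began 9 bases from a start of Sorcs1, a sorting receptor, Epsti1-AS1 78 bases from a start of Epsti1, and Ppa1-AS1 58 bases from a start of Sar1a, a GTPase of vesicle transport that neighbours Ppa1. Open reading frames were short, with a median of 65 codons for the longest in each transcript, and 49 transcripts held at least 100 codons.

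By position, the median of the mean FPKM was 1.31 in head to head transcripts, 1.13 within genes and 1.58 in tail to tail transcripts. In the same order, the coding genes were at a median of 8.38, 5.42 and 3.48 FPKM. Transcripts are not replicates, so no test was made of these values.

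Levels were low. The median of the mean FPKM over 18 libraries was 1.26 in the antisense transcripts and 1.91 in the other spliced transcripts, and 144, 28 and 13 of the 244 reached means of 1, 5 and 10. A transcript that was not assembled is missing from a list and was set to 0, so a 0 does not show absence. Summed, the antisense transcripts held 0.0263% (round polysome replicate 2) to 0.363% (elongating RNP replicate 1) of the FPKM of all spliced transcripts. The 10 highest held 33.5% of the sum over all 244.

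The lists held 26773 to 109864 transcripts and no read counts, so the depth behind each value is unknown. Every spliced transcript carried a strand, but 46.1% to 86.5% of the single-exon transcripts carried none, so unspliced reads in an overlap could not be given to a strand. Pearson's r between replicates, across transcripts, was 0.395 to 0.541 except with the round libraries numbered 2, where it was 0.211 to 0.332.

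Some libraries stood apart from others with the same label. Both round libraries numbered 2 listed 14 antisense transcripts each, against 58 to 92 in the other round libraries, although they listed 29.7% and 31.7% of the other spliced transcripts. In the same libraries the mean log2 level of 16 elongating spermatid markers was 2.33 and 2.44, against 6.04 to 7.26 in the other round libraries, and that of 19 markers of Sertoli cells, the somatic cells that nurse germ cells, was 4.80 and 5.65, against 1.49 to 3.19. The 15 round spermatid markers, those of the labelled cell type, had means of 3.46 and 3.83 there, the lowest of the 18 libraries. They were at 5.54 to 7.05 in the other round and at 4.05 to 6.38 in the pachytene libraries. The means of 9 spermatogonium markers were 4.25 and 5.49, against 2.34 to 3.35 in the other round libraries. Pachytene RNP and polysome replicates 2 listed 18 and 46, with elongating spermatid marker means of 2.45 and 2.37. Pachytene replicates 1 listed 67 and 93, with marker means of 6.83 and 5.52. The elongating libraries listed 83 to 128 and had marker means of 7.46 to 8.68. Their means of 15 pachytene spermatocyte markers were 4.93 to 6.02, which lies within the 4.03 to 6.41 of the pachytene libraries. Summed, the 16 spermatid markers ran from 172 to 3527 FPKM in pachytene, from 222 to 6139 in round and from 9951 to 34585 in elongating libraries. In the round libraries numbered 2, 12 of the 16 were listed, with Smcp, Spem1 and Ccin at 0 in both. All 19 Sertoli markers were listed there, whereas Sox9 and Fshr, which define these cells, were at 0 in every elongating and in the other 4 round libraries. Their sum ran from 192 to 1873, 74.1 to 2945 and 52.8 to 102 FPKM in pachytene, round and elongating libraries. For a gene with introns a 0 means only that no spliced transcript of it was listed. The protamine gene Prm1, among the most abundant mRNAs of these cells, was at 0 in all 3 elongating polysome libraries. The cause was not tested. Pachytene RNP replicate 3, with 32 antisense transcripts, had a marker mean of 4.77, and pachytene polysome replicate 3, with 52, a mean of 4.36. Libraries with low spermatid markers thus listed few antisense transcripts within as well as between the labelled cell types, and the part of these cells in the results was not tested.

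**Figure D2:**
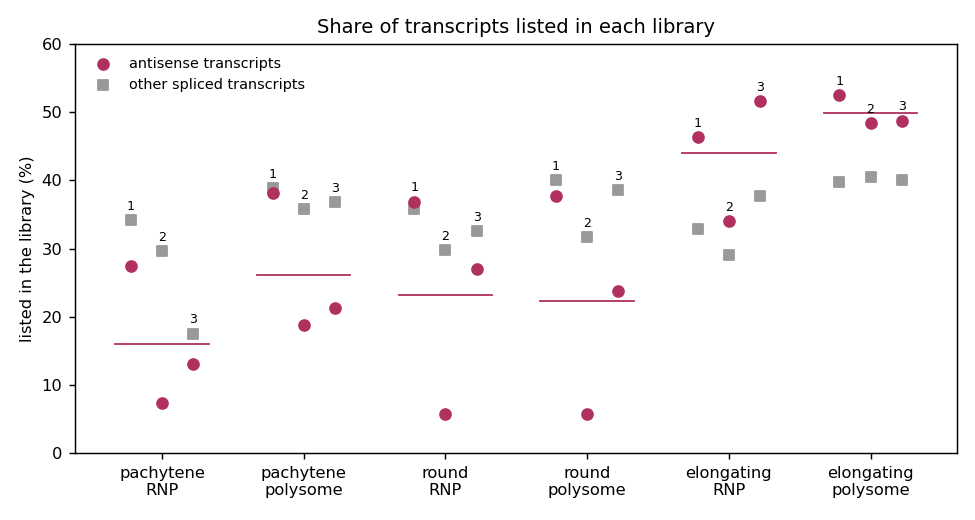
Share of the 244 antisense transcripts (circles; lines give group means) and of the 37286 other spliced transcripts (squares) that each of the 18 libraries listed, in percent, with replicate numbers above the points. The elongating libraries list 34.0% to 52.5% of the antisense transcripts and 29.0% to 40.5% of the others, and both round libraries numbered 2 list 5.74%.

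Across cell types, the mean number of antisense transcripts listed was highest in elongating spermatids. Listing chose the transcripts, so these numbers are given with no test. In RNPs, 39.0 ± 25.2, 56.7 ± 38.9 and 107 ± 22.1 (mean ± SD, n = 3) were listed in pachytene, round and elongating libraries. Polysomes gave 63.7 ± 25.6, 54.7 ± 39.1 and 122 ± 5.51. In polysomes the elongating and round libraries did not overlap, in RNPs they did, and RNP and polysome libraries overlapped in every cell type. As a share of the spliced FPKM, which rests on the same lists, the antisense transcripts made up 0.296% ± 0.0659 in elongating and 0.156% ± 0.102 in round RNPs. Polysomes gave 0.208% ± 0.0194 in elongating and 0.11% ± 0.0724 in round spermatids. By this share elongating libraries did not overlap with round libraries in either fraction, nor elongating RNPs with elongating polysomes. Margins were narrow in RNPs. Elongating RNP replicate 3 was at 0.2307%, round RNP replicate 1 at 0.2277% and elongating polysome replicate 1 at 0.2299%.

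By mean level, 164 of the 244 were highest in elongating spermatids (67.2%), against 37.1% of the other spliced transcripts, 45 in pachytene spermatocytes and 35 in round spermatids. Without both round libraries numbered 2 the numbers were 144, 39 and 61. Within genes, 74.6% were highest in elongating spermatids, and among head to head transcripts 57.6% were. Only 2 were listed in pachytene libraries alone, none in round libraries alone and 23 in elongating libraries alone, and 111 were listed in every cell type. Both fractions listed 213, RNPs alone 14 and polysomes alone 17.

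Ppa1-AS1 was the highest and, of the 244, the only transcript listed in all 18 libraries. It runs from chr10:61136869-61143000 on the minus strand, has 2 exons and ends in the 3′ UTR of Ppa1, a pyrophosphatase, with 48 shared bases. Its FPKM was 23.0, 22.9 and 10.5 in pachytene RNPs and 42.8, 36.3 and 29.4 in pachytene polysomes. Round RNPs gave 44.4, 28.3 and 34.4, and round polysomes 45.6, 13.8 and 46.4. In elongating RNPs it was at 66.7, 95.7 and 43.4, and in elongating polysomes at 122, 76.4 and 122. Each elongating polysome library was thus above each round polysome library, but the difference did not pass the test (limma, log2 difference 1.72, SE 0.73, adjusted p = 0.319).

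Ppa1 itself followed another order. It was highest in round polysome replicate 2 at 119 FPKM, where Ppa1-AS1 was at 13.8, and between 3.82 and 9.75 in the 6 elongating libraries, where Ppa1-AS1 was between 43.4 and 122. Ppa1-AS1 was above Ppa1 in 14 of the 18 libraries.

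Pcdh8-AS1, listed in 17 libraries, lies head to head with Pcdh8, which encodes a protocadherin, a cell adhesion protein, at chr14:80169942-80172648 on the plus strand. Its first exon of 67 bases lay wholly in coding sequence of Pcdh8. Its levels were 25, 0 and 13.4 in pachytene RNPs, 51.2, 36.1 and 24.9 in pachytene polysomes, 33.4, 4.11 and 19.8 in round RNPs and 57.7, 3.69 and 35.1 in round polysomes. In elongating RNPs they were 24.2, 16.4 and 24.7, and in elongating polysomes 41.9, 26.6 and 68.2. The gene itself did not exceed 8.69 FPKM in any library and was listed at 0 in 9. Polysomes were above RNPs without overlap in elongating spermatids, but no comparison of Pcdh8-AS1 passed the test.

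Gal3st3-AS1 (chr19:5305875-5306959, minus strand) was listed in 16 libraries at 8.94 to 50.8 FPKM and lies within Gal3st3, a sulfotransferase that acts on sugar chains. No spliced transcript of Gal3st3 itself was listed in any library. Its 2 missing libraries were pachytene polysome replicate 2 and round RNP replicate 2. Rai2-AS1, Slc9a4-AS1 and Sorcs1-AS1 also lay opposite genes listed at 0 in all 18 libraries, as did 18 coding genes in all. Rai2 is a retinoic acid-induced gene on chromosome X and Slc9a4 encodes a sodium and proton exchanger.

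Rai2-AS1 was listed in 7 libraries, 5 of them elongating. It was at 38.2, 0 and 56.7 in elongating RNPs and at 59.7, 44.1 and 88.8 in elongating polysomes, and elsewhere at 20.5 in pachytene polysome replicate 1 and 25.8 in round RNP replicate 3. Its difference between elongating and round polysomes, which listed it at 0, did not pass the test (limma, adjusted p = 0.072). Slc9a4-AS1 was at 65.1, 21.8 and 20.5 in elongating RNPs, at 11.4, 20.6 and 0 in elongating polysomes, and otherwise only in round RNP replicate 1, at 14.6.

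**Figure D3:**
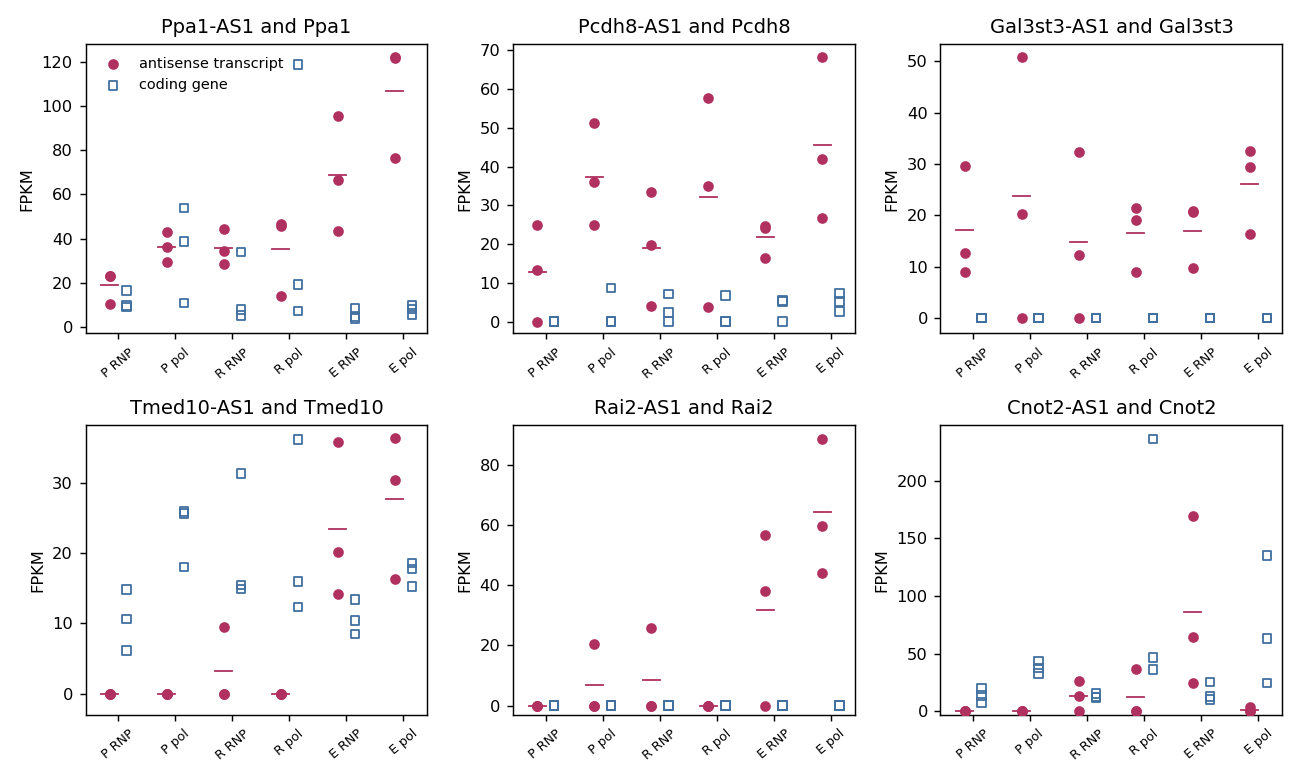
FPKM of 6 antisense transcripts (circles; lines give means of 3 libraries) and of the coding genes they overlap (squares) in RNP and polysome (pol) libraries of pachytene spermatocytes (P), round spermatids (R) and elongating spermatids (E). Tmed10-AS1 is at 14.2 to 36.4 in the 6 elongating libraries and at 0 in 11 of the other 12, and Cnot2-AS1 is at 24.1 to 169 in elongating RNPs and at 0 to 3.70 in elongating polysomes.

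Among the other high antisense transcripts, Rpsa-AS1, which ends in the 3′ UTR of the gene of a small ribosomal subunit protein, was listed in 17 libraries at 3.68 to 40.5 FPKM, with Rpsa at 47.1 to 183. Epsti1-AS1 was listed in 9 libraries and reached 135 in elongating polysome replicate 1, with 0 in the other elongating polysome libraries. In every comparison its groups overlapped. Seh1l-AS1, opposite the gene of a nuclear pore protein, was listed in 13 libraries, in elongating RNPs at 32.5, 13.7 and 23.1 and in elongating polysomes at 12.4, 7.54 and 9.27. Serpinb9b-AS1 was listed in 3 libraries, all of them elongating, at 43.9 to 97.5, while Serpinb9b, a protease inhibitor, did not exceed 1.93. Abhd14b-AS1 was listed in 7 libraries at 3.55 to 58.7. Rtdr1-AS1 lay wholly in exons annotated to Rtdr1, with all 775 bases shared and 22 of them coding, and was at 36.6, 0 and 19.6 in pachytene RNPs and at 4.62, 0 and 0 in pachytene polysomes.

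Some transcripts that were at 0 in a library had another chain of the same locus listed there. Opposite Zmynd11, a chromatin reader, Zmynd11-AS1 was listed in 4 libraries, Zmynd11-AS2 in 8 and Zmynd11-AS3 in 7, and the sum of the 3 was listed in 15. The sum was 36, 0 and 53.9 in pachytene RNPs, 76.5, 103 and 71.1 in pachytene polysomes, 70.0, 0 and 35.2 in round RNPs and 46.5, 0 and 130 in round polysomes. In elongating RNPs it was 61.8, 40.3 and 24, and in elongating polysomes 50.4, 53.2 and 81.7. Of the 3 libraries without it, 2 were the round libraries numbered 2. Taken alone, Zmynd11-AS1 was at 0 in all 6 elongating libraries, which the sum was not. Opposite Cpsf2, which encodes a subunit of the complex that cleaves pre-mRNA before polyadenylation, Cpsf2-AS1 was listed in 8 libraries and the sum with Cpsf2-AS2 in 12.

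Against the coding genes, the antisense transcripts were mostly lower. The overlapped genes had a median of 6.16 FPKM, and the mean log2 ratio of antisense transcript to gene, with 1 added to each FPKM, had a median of -1.63 (-7.44 to 3.86). The antisense transcript was above the gene in 45 of 244, and 41 antisense transcripts lay opposite genes with a mean FPKM under 1. Gal3st3-AS1 had the highest ratio (3.86), followed by Pcdh8-AS1 (3.07), Rai2-AS1 (2.12), Ppa1-AS1 (1.63) and Slc9a4-AS1 (1.5).

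**Figure D4:**
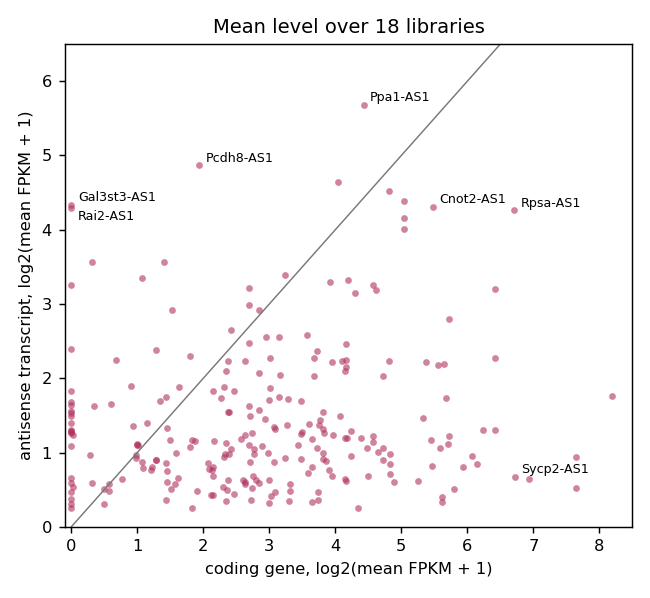
Mean level over 18 libraries of each of the 244 antisense transcripts against that of the coding gene it overlaps, both as log2(FPKM + 1), with the line of equal levels. Most points lie under the line, and 53 of the antisense transcripts had a mean FPKM above that of the gene.

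Some genes of the lists used for spermatogenic function lay opposite an antisense transcript, as did 173 of all 15146 genes tested. Among 39 genes of meiosis and recombination this was Sycp2, a component of the synaptonemal complex, among 52 genes of the sperm tail Hydin, which is needed for ciliary motion, and among 35 transcription factors Ovol1 and Sox6. None of 31 genes of double-stranded RNA and small RNA pathways, 38 of the acrosome, 31 of spermatid chromatin, 58 of RNA binding and mRNA storage and 50 of ubiquitin and the proteasome did. Sycp2-AS1 was at 0.874, 4.14 and 5.59 in the 3 libraries that listed it, with Sycp2 at 20 to 245 over all libraries. Hydin-AS1 was listed in 6 libraries at 1.82 to 13.8, with Hydin at 8.40 to 126. The transcripts opposite Ovol1 and Sox6 stayed at or under 7.67 FPKM.

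For the tests, 224 of the 244 reached 1 FPKM in 3 or more libraries, among 35881 spliced transcripts tested with limma on log2(FPKM + 1) in 1 model of all 18 libraries, and calls were made at a Benjamini-Hochberg adjusted p under 0.05. A transcript that passed this limit only through the group in which it is high had to differ, so counts over the 224 are descriptions. The comparisons share groups, so they are not independent of each other. Deposited values are not normalized between libraries, and median-ratio factors from 7142 genes ran from -1.08 (pachytene RNP replicate 3) to 0.61 (pachytene polysome replicate 2) on the log2 scale and were higher in every polysome than in every RNP library. This scaling moved the median difference of all transcripts from 0.26 to 0 in pachytene cells, from 0.11 to 0 in round spermatids and from 0.23 to 0 in elongating spermatids. The median of the antisense transcripts was 0, 0 and 0.26 before and 0, 0 and -0.06 after it.

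Between polysomes and RNPs, 1, 0 and 1 of the 224 antisense transcripts were called in pachytene, round and elongating cells, and at shares this small the counts say nothing about the antisense transcripts as a group. In pachytene spermatocytes 1 of 224 was called, where 0.543% of all tested transcripts were, 0.468% as higher in polysomes. This was Gm1527-AS1 (chr3:28781966-28796334, minus strand), with 4 exons and 47 bases in the 5′ UTR of Gm1527. It was listed at 4.71, 5.82 and 1.25 in pachytene polysomes and at 0 in the other 15 libraries. It met the rule and the limit of 1 FPKM in 3 libraries through pachytene polysomes alone, so its difference from pachytene RNPs and from round polysomes was fixed by the selection, and no p is given. Groups did not overlap in 6 antisense transcripts, all higher in polysomes, among them Ppa1-AS1 (8.34% of all tested transcripts were higher and 0.549% lower without overlap).

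In round spermatids no antisense transcript was called (limma, 0.223% of all tested transcripts), and 5 had an unadjusted p under 0.05 (8.27% of all). Groups overlapped in all 224, whereas 4.02% of all tested transcripts were higher and 0.719% lower without overlap.

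In elongating spermatids 1 of 224 was called (1.05% of all tested transcripts, 0.298% as lower in polysomes). Efemp1-AS1, within the gene of an extracellular matrix protein, was listed at 15.3, 12.9 and 5.25 in RNPs and at 0 in all 3 polysome libraries. Outside these it was listed in pachytene RNP replicate 1 at 2.97 and in round RNP replicate 1 at 3.72, so every value was from an RNP library. Without the elongating RNPs it would not have met the rule or the limit of 1 FPKM in 3 libraries, so its difference was fixed by the selection, and no p is given. Groups did not overlap in 11 antisense transcripts that were higher in polysomes (11.4% of all tested transcripts did so) and in 6 that were lower (1.35% of all). Sorcs1-AS1, Pcdh8-AS1 and Rpsa-AS1 were among the 11, and Cnot2-AS1, Efemp1-AS1 and Seh1l-AS1 among the 6.

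Cnot2-AS1 (chr10:115947168-115959979, plus strand) lies within Cnot2, which encodes a subunit of the CCR4-NOT complex that removes poly(A) tails. It shares 46 bases with exons of Cnot2, which are not coding sequence and lie between the outermost coding bases of the gene. It was at 169, 24.1 and 64.3 in elongating RNPs and at 0, 0 and 3.70 in elongating polysomes, whereas Cnot2 was at 10.2, 25.1 and 12.5 in these RNPs and at 24.6, 63.1 and 135 in these polysomes. By group means, the antisense transcript and the gene thus lay in opposite order in the fractions. Groups did not overlap for the antisense transcript but did for Cnot2. The difference of Cnot2 was not called (limma, log2 difference 1.94, adjusted p = 0.133), and after median-ratio scaling it was 1.07 (adjusted p = 0.729). The median over all genes, before scaling, was 0.70 toward polysomes. The values of Cnot2-AS1 in elongating RNPs, where it was high, were by themselves enough for the rule and the limit of 1 FPKM in 3 libraries. The p-values given for it are therefore a description and no independent support. Its own difference missed the threshold (limma, adjusted p = 0.0913). The ratio of Cnot2-AS1 to Cnot2 fell by 7.22 on the log2 scale from RNPs to polysomes (SE 1.23, limma over 3768 pairs of a transcript and a coding gene on opposite strands, adjusted p = 0.0112). This was the only call among 198 antisense transcripts whose ratio could be tested in elongating spermatids (0.186% of all pairs). The call was lost without elongating RNP replicate 1 (adjusted p = 0.0923), elongating polysome replicate 2 (0.0743) or elongating polysome replicate 3 (0.0808), and with 0.1 in place of 1 added to each FPKM (0.117). No ratio was called in pachytene (0% of all pairs) or round cells (0.0796% of all pairs). In pachytene cells Cnot2-AS1 was listed at 0 in all 6 libraries, so its ratio there holds the level of Cnot2 alone. In round cells the ratio changed by -3.55 on the log2 scale (SE 1.23, adjusted p = 0.453).

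Between cell types, elongating was compared with round and round with pachytene, and elongating with pachytene was not fitted. From round to elongating spermatids calls were few, at a share near that of all tested transcripts. These counts say nothing about the antisense transcripts as a group. In polysomes, 3 of 224 antisense transcripts were called higher in elongating spermatids (1.21% of all tested transcripts were called, 0.975% higher), and all 3 were listed at 0 in the 3 round polysome libraries. Tmed10-AS1 was at 30.4, 16.4 and 36.4 in elongating polysomes (adjusted p = 0.0114). It was at 35.8, 20.2 and 14.2 in elongating RNPs, at 9.41 in round RNP replicate 1 and at 0 in the other 11 libraries. Tmed10, a cargo receptor of the early secretory pathway, was at 8.44 to 18.6 in the elongating and at 6.14 to 36.1 in the other libraries, where the groups overlapped. Tmed10-AS1 shared only 6 bases with it. The call of Tmed10-AS1 held with each of the 18 libraries left out in turn and was lost after quantile normalization (adjusted p = 0.0605). Without the elongating libraries, where it was high, it would not have met the rule or the limit of 1 FPKM in 3 libraries. The p-values given for it are therefore a description and no independent support.

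Sorcs1-AS1 was at 4.65, 4.78 and 7.46 in elongating polysomes and at 3.43 in elongating RNP replicate 3, and was listed nowhere else. It too met the rule through the group in which it was high, elongating polysomes, so no p is given. 2410066E13Rik-AS1 was at 37.0, 26.4 and 27.6 in elongating polysomes and at 55.6, 9.84 and 7.59 in elongating RNPs, and elsewhere at 25.4 in pachytene polysome replicate 1 and 5.78 in round RNP replicate 3 (adjusted p = 0.0499). Its call was lost without any 1 of 14 libraries (adjusted p = 0.0521 to 0.126), the exceptions being pachytene polysome 1 and 2, round RNP 3 and elongating RNP 1. Without the elongating libraries it too would not have met the rule, so its p-values are likewise a description. Of the 3, Tmed10-AS1 alone was still called without both round libraries numbered 2 (adjusted p = 0.0248) and after median-ratio scaling (0.0289).

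Groups did not overlap in 31 of the 224, all higher in elongating polysomes, where 5.91% of all tested transcripts were higher without overlap and 3.41% lower. Ppa1-AS1, Rai2-AS1, Rpsa-AS1 and Seh1l-AS1 were among the 31, besides the 3 called. The median difference of the antisense transcripts was 0.69 on the log2(FPKM + 1) scale, with 0 over all tested transcripts, and 0.51 without both round libraries numbered 2.

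In RNPs no antisense transcript was called between elongating and round spermatids (limma, 0.242% of all), 30 had an unadjusted p under 0.05 (6.34% of all), and the median difference was 0.58 against 0 over all transcripts, and 0.35 without both round libraries numbered 2. Groups did not overlap in 10, all higher in elongating spermatids (2.63% of all tested transcripts were higher and 2.9% lower). Among these were Tmed10-AS1, Efemp1-AS1, Slc9a4-AS1, Seh1l-AS1 and 2410066E13Rik-AS1. From pachytene spermatocytes to round spermatids, no antisense transcript was called in RNPs (limma, 0.106% of all, 9 of the 224 with an unadjusted p under 0.05, 4.29% of all). Ppa1-AS1 was the only transcript of the 224 without overlap there, higher in round RNPs (1.21% of all were higher and 0.828% lower). In polysomes Gm1527-AS1 was the 1 of 224 that was called (1% of all, 0.624% as lower), and groups did not overlap in 4, all lower in round spermatids (1.33% of all were higher and 3.92% lower). Median differences were 0 in both fractions.

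The change of the fraction difference across cell types was called in none of the 224 (limma, 0.443% of all tested transcripts, 10 of the 224 with an unadjusted p under 0.05, 6.16% of all). Without the filter of 1 FPKM, which puts 203392 transcripts in the adjustment, the calls of Tmed10-AS1 (adjusted p = 0.249) and 2410066E13Rik-AS1 (0.355) from round to elongating polysomes were lost.

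**Figure D5:**
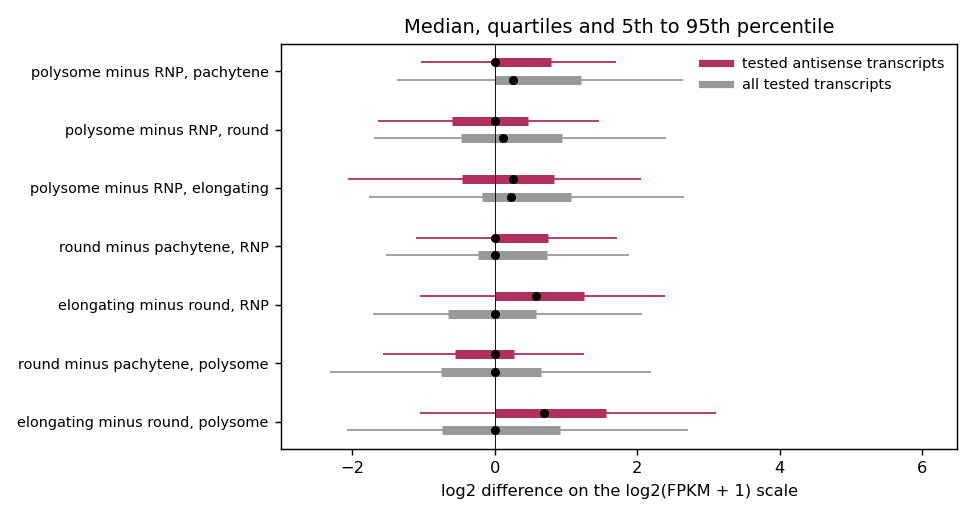
Differences between groups on the log2(FPKM + 1) scale for 224 antisense transcripts and all 35881 tested transcripts, as median (point), quartiles (thick line) and 5th to 95th percentile (thin line). The medians of the antisense transcripts are 0.58 and 0.69 from round to elongating spermatids in RNPs and polysomes, where those of all transcripts are 0.

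Of the overlapped coding genes 173 could be tested between fractions. Of these, 4 were called in pachytene spermatocytes (6.17% of 15146 genes tested were), none in round spermatids (0.317%) and 3 in elongating spermatids (1.49%), all higher in polysomes. Their median differences were 0.95, 0.63 and 0.80, against 1.01, 0.64 and 0.70 over all genes. The 4 were Mtmr2, Syt10, Alg9 and Pabpn1, the nuclear poly(A) binding protein, and the 3 included Nxf1, which exports mRNA from the nucleus, and Hgf, a growth factor. Hgf was at 2.64, 14.2 and 2.19 in elongating polysomes, at 2.90 in round polysome replicate 1 and at 0 in every other library. Without the elongating polysomes it would not have met the limit of 1 FPKM in 3 libraries. Its difference was thus fixed by the selection, and no p is given. After median-ratio scaling none of the other genes named above was called (limma, adjusted p = 0.132 to 0.788). Leaving out single libraries gave 0 to 11, 0 to 1 and 1 to 5 calls in the 3 cell types. Nxf1 was at 20.2, 13.7 and 24.7 in elongating RNPs and at 180, 114 and 87.3 in elongating polysomes (log2 difference 2.62, SE 0.54, adjusted p = 0.0244). Between cell types, the only call among the 173 was Fat4, an atypical cadherin, in polysomes (0.621% of all genes). It was at 0, 0 and 1.6 in round and at 5.25, 5.26 and 16.1 in elongating polysomes (adjusted p = 0.0447), and its call was lost after median-ratio scaling (0.0816). Without the elongating libraries it would not have met the limit of 1 FPKM in 3 libraries, so these p-values are a description. No overlapped gene was called from round to elongating RNPs (0.152%), from pachytene to round RNPs (0.0066%) or polysomes (0.165%), or on the change of the fraction difference (0.0594%).

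Of 31 genes of double-stranded RNA and small RNA pathways, whose proteins bind or cut paired RNA, 25 could be tested. The RNA-binding proteins Adad1, Strbp and Tarbp2 had the highest means, at 124, 95.3 and 61.6 FPKM. Ilf2 was the only 1 called in any comparison, higher in pachytene polysomes (log2 difference 1.85, SE 0.53, limma adjusted p = 0.0492), and this was lost after median-ratio scaling (0.72, adjusted p = 0.783). The median over the 25 fell by 0.54 on the log2 scale from round to elongating polysomes, where that of all genes fell by 0.12, and no gene of the list passed the test there.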

How the data were processed

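RNA of the RNP and polysome fractions was sequenced from ribosome-depleted stranded libraries. The authors mapped reads to mm9 with TopHat and assembled each library with Cufflinks, and the deposited lists give an FPKM per transcript, with no read counts and no normalization between libraries. The control mRNA scaling of the methods was not used here. Members and gene lists were chosen with earlier results of these data known.

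Transcripts of at least 2 exons were merged by chromosome, strand and intron chain. Overlaps were taken from GENCODE vM1, counting all exons of protein-coding transcripts of protein-coding genes. A transcript absent from a list was set to 0. The level of a gene was the sum over its spliced transcripts (over all its transcripts for genes of a single exon). Values were tested as log2(FPKM + 1) with limma 3.58.1 (R 4.3.3) in 1 model of 6 groups, over 35881 transcripts or 15146 genes with 1 FPKM in 3 or more libraries, with Benjamini-Hochberg adjustment at 0.05. Every adjusted p of a level or ratio is from limma. Ratios to the coding gene were tested over 3768 pairs. Numbers of transcripts listed were compared without a test, since listing chose the transcripts. No p is given for a transcript or gene that met the rule or the limit of 1 FPKM only through the group in which it was high. Fits were checked on simulated data that lacked the many values of 0 seen here, with changes placed only in features of higher level. That check thus does not cover transcripts that are mostly at 0. Transcripts named were the highest at 15 coding genes, those called, those opposite genes of the function lists, those listed in all 18 libraries and the 5 highest in ratio to the gene. Sequences were read with pysam 0.24.0. Alternatives changed the filter, the value added to FPKM, the scaling, a replicate block, the libraries fitted and the definition of members. The main model did not pair libraries by replicate number, since in no comparison did deviations of all same-numbered libraries correlate above 0.1. Some did, up to 0.32 between the round fractions, so pairing of some libraries is not excluded. The values of 1 antisense transcript and its coding gene are not reported here.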

Additional observations from a re-analysis of the deposited data

How the results depend on the processing

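No count of called antisense transcripts was large, and most moved by over 1.5 times under some setting. Without the filter on low values, none was called in pachytene (0) or elongating cells (0) between fractions, nor between round and pachytene (0) or elongating and round polysomes (0), where 203392 transcripts were adjusted for. Requiring 5 FPKM left 0 between pachytene fractions and 0 between round and pachytene polysomes. With 0.1 added to FPKM, 0 levels and 0 ratios were called between elongating fractions. Median-ratio scaling gave 3 levels and 2 ratios there, 1 call each from round to elongating RNPs and polysomes, and 0 and 1 coding genes between pachytene and elongating fractions. Quantile normalization, chosen after seeing the data, gave 2 between elongating fractions, 1 from round to elongating RNPs and 0 in polysomes. Fitting only the libraries compared gave 0 between pachytene fractions, 0 between elongating fractions and 0 between round and pachytene polysomes. Leaving out both round libraries numbered 2, also chosen later, gave 2 between elongating fractions and 1 between elongating and round polysomes, and 18, 2 and 7 coding genes between pachytene, round and elongating fractions. With the replicate number as a block, 12 coding genes were called between pachytene fractions in place of 4, and no count of antisense transcripts changed; deviations of libraries with the same number correlated at -0.05 to 0.32, and only between elongating fractions did every library correlate best with its own number. Leaving out single libraries gave 0 to 2, 0 to 0 and 0 to 5 calls between pachytene, round and elongating fractions, 0 to 1 and 0 to 4 from pachytene to round and round to elongating RNPs, 1 to 2 and 1 to 6 in polysomes, 0 to 1 for the change across cell types, 0 to 11, 0 to 1 and 1 to 5 coding genes, and 0 to 4 ratios between elongating fractions. Of 92 counts under other settings 64 stayed within 1.5 times, and of 252 without a library 199 did. The causes were not tested. Listing in at least 6 libraries gave 91 antisense transcripts and 50 shared bases 154. FPKM without counts leaves the depth behind each call unknown.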
